A study of Oncorhynchus mykiss with 9 samples.

Results

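MicroRNA miR-101 is one of the abundant miRNAs of the rainbow trout liver, and its entries were followed in small RNA from control fish and from fish under hypoxia. Its members are the 3 entries whose name starts with miR-101- in the deposited tables joined over 9 libraries, miR-101-x, miR-101-y and miR-101-z, of 1413 entries in all. The file does not say what the letters x, y and z mean, and they are kept as written. Liver tissue of wild-type Oncorhynchus mykiss was sampled in 3 control libraries, 3 libraries of moderate hypoxia and 3 libraries of acute hypoxia, with 12 h under hypoxia per the series description. The sources used here give neither the age of the fish nor whether replicate libraries stem from different fish, pools or 1 fish. The p-values therefore cover the spread between libraries, which may be technical.

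A miRNA is cut as a short duplex from the stem of a hairpin, and one strand, the guide, is kept in the Argonaute protein, while the other, the passenger, is mostly degraded. The guide pairs with messenger RNAs mainly through its seed, bases 2 to 8. In mammals the guide of miR-101 comes from the 3′ side of its hairpin. It represses, among others, the mRNA of EZH2, the enzyme that places the repressive histone H3 lysine 27 methyl mark, and its level is reduced in human liver cancer.

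The deposited sequences are shown because they decide how the 3 entries can be read. They are written as DNA, 5′ to 3′, with the seed in capitals.
miR-101-y: tACAGTACtatgataactgaat
miR-101-z: tACAGTACtatgataactgaagt
miR-101-x: cAGTTATCatggtaccggtgctgt
The entries are 22, 23 and 24 nt long in this order. Both miR-101-y and miR-101-z carry the seed ACAGTAC, and no other entry of the 1413 has it, predicted entries included. The seed of miR-101-x, AGTTATC, was found in that entry alone.

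The sequences of miR-101-y and miR-101-z are the same over their first 21 bases and differ after that. In the separate deposited table of acute hypoxia with control, miR-101-y is listed with another last base (T22G, counted from 1 at the 5′ end, joined tables first), and with it the first 22 bases match miR-101-z. The ends are shown with the bases after position 21 in capitals.
miR-101-y in the joined tables: tacagtactatgataactgaaT
miR-101-y in the table of acute hypoxia with control: tacagtactatgataactgaaG
miR-101-z: tacagtactatgataactgaaGT
The abundance of the 3 entries differed by at most 0.283% between these tables in any library. One name thus stands for the same values under both ends. No source used here says how reads were divided between miR-101-y and miR-101-z, so the split between them is uncertain.

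The third sequence, miR-101-x, pairs with miR-101-y. Its first 10 bases are the perfect reverse complement of bases 10 to 19 of miR-101-y, shown in capitals.
miR-101-x: CAGTTATCATggtaccggtgctgt
miR-101-y: tacagtactATGATAACTGaat
The duplex that RNAduplex predicts has 18 base pairs and leaves unpaired bases at both 3′ ends. Its printed range is base 1 to 21 of the 24 in miR-101-x and base 1 to 20 of the 22 in miR-101-y. This range can include unpaired end bases. In the run above base 1 of miR-101-x faces base 19 of miR-101-y, so base 20 of miR-101-y is unpaired. In their letters the entries thus read as opposite strands of 1 stem. Genome positions of the miR-101 hairpins were not analysed here.

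The deposited abundance was scaled to 8443327 to 16515716 reads per library, recovered from the step between low values. These reads are not the sequencing depth, since the listed entries alone account for the whole scale. Of all entries 481 reached a mean of 1 TPM, the deposited abundance scaled to the library, and were tested, all 3 miR-101 entries among them. The liver markers miR-122, miR-192, miR-194 and miR-148 summed to between 361303 and 575723 TPM, and those of striated muscle (miR-1, miR-133 and miR-206) to between 9.04 and 27.1 TPM. Moderate hypoxia libraries 1 and 2 stand apart, with 46 entries, none of them miR-101, of at least 1 TPM and over 4 times higher than in any other library. For 87.8% of the 98 entries of at least 100 TPM, library 3 of the moderate hypoxia group had a value between those of its libraries 1 and 2, against 4.08 to 67.3% for the other libraries. If these libraries are not independent, the p-values of every comparison may be too low.

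The most abundant of the 3, miR-101-y, held position 10 among all entries by its mean of 14806 TPM. In the control libraries it read 17704, 14980 and 7288 TPM. Under moderate hypoxia it read 12396, 12538 and 12458 TPM, and under acute hypoxia 11866, 25882 and 18138 TPM. The moderate hypoxia libraries were nearly level, while both other groups spanned them, with control 3 the lowest and acute hypoxia 2 the highest library of all. Its place in the order of abundance ran from 7 in acute hypoxia 2 to 18 in control 3.

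Entries next to it in that order were miR-181-x and miR-26-x above and miR-21-x and miR-100-z below. The means of miR-101-y, miR-21-x and miR-100-z over the 9 libraries, 14806, 14442 and 14342 TPM, differ by far less than the SD of miR-101-y over libraries, 5289 TPM, so their order is not resolved. Between 66142 and 218529 reads of miR-101-y lay behind each value. In control 3, which had the fewest of these reads, its 95% exact counting interval was 7233 to 7344 TPM. Such intervals cover counting error only. The sources used here do not say whether molecular identifiers separated molecules from their copies.

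The second carrier of the ACAGTAC seed, miR-101-z, was far scarcer, and miR-101-y held 95.2% of the seed's summed mean abundance. It read 659, 782 and 400 TPM in control, 554, 719 and 645 TPM under moderate hypoxia and 596, 1482 and 932 TPM under acute hypoxia. As for miR-101-y, the lowest library was control 3 and the highest acute hypoxia 2, and the groups overlapped.

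The opposite strand, miR-101-x, read 375, 728 and 443 TPM in control, 711, 666 and 679 TPM under moderate hypoxia and 540, 932 and 679 TPM under acute hypoxia. Its lowest library was control 1, in which miR-101-y was above its mean, and its highest was again acute hypoxia 2. Over the 9 libraries the means of miR-101-z and miR-101-x were 752 and 639 TPM, at positions 47 and 50. They lie within their spread over libraries (SD 311 and 166 TPM). Within a library the ratio of miR-101-z to miR-101-x was 0.90 to 1.76 in control and 0.78 to 1.08 under moderate hypoxia. Under acute hypoxia it was 1.10 to 1.59, so there miR-101-z was higher in every library. Which of them is higher in the other groups is not resolved. The TPM values are scaled to the reads of a library and are not divided by length, and the entries differ in length by at most 2 nt.

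**Figure D1:**
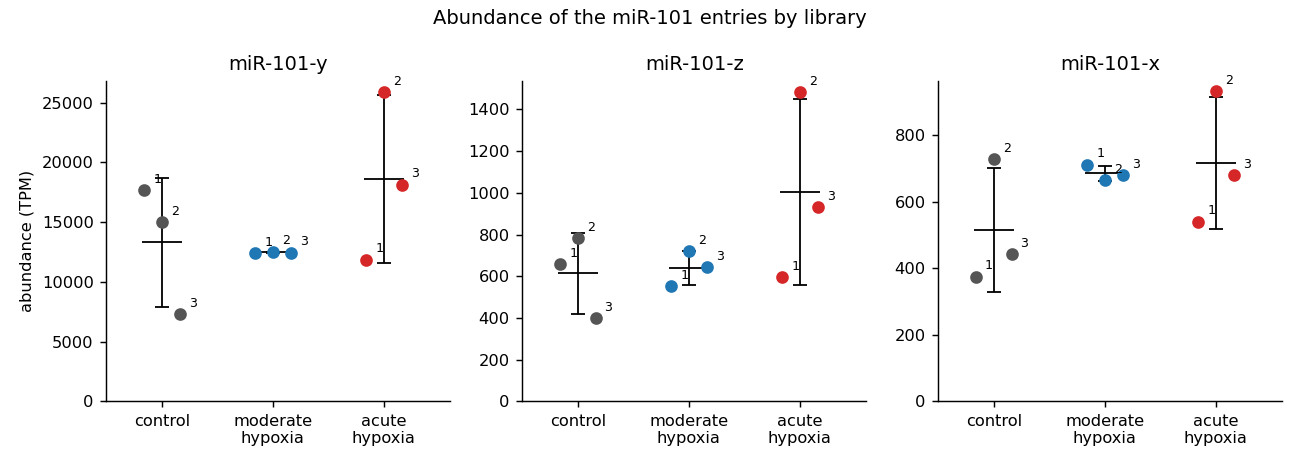
Abundance (TPM, linear axis from 0) of each miR-101 entry in the 9 libraries, with points numbered by replicate and horizontal and vertical black lines for the mean and SD of 3 libraries. The 3 moderate hypoxia points of miR-101-y lie between 12396 and 12538 TPM, inside the range of both other groups, and acute hypoxia 2 is the highest library in each panel.

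Moderate hypoxia was set against control first, and none of the 3 miR-101 entries passed the test. In all, 25.6% of the 481 tested entries were called (7.9% higher and 17.7% lower), 39.9% had an unadjusted p under 0.05 and in 43.2% the groups did not overlap. Of the miR-101 entries 0 of 3 met any of these. The most abundant entry, miR-101-y, read 12464 ± 71.2 TPM under moderate hypoxia and 13324 ± 5402 TPM in control (SD, n = 3 each), a log2 value of 0.00086 with a 95% interval of -0.76 to 0.76 (limma adjusted p = 0.998). That interval spans 0.592- to 1.69-fold, so a change inside that range is not excluded by these libraries. Leaving out control 3 gave -0.39 and leaving out control 1 gave 0.25.

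For miR-101-z, 639 ± 82.8 TPM stood against 613 ± 195 TPM (SD, n = 3 each), a log2 value of 0.11 (SE 0.338, limma adjusted p = 0.868), which turned to -0.17 without control 3. The opposite strand, miR-101-x, read 685 ± 23.4 TPM against 515 ± 187 TPM (SD, n = 3 each), a log2 value of 0.47 (SE 0.277, limma adjusted p = 0.231). It was 0.27 without control 1 and 0.75 without control 2 (limma adjusted p = 0.0635, unadjusted p = 0.0152). All 3 moderate hypoxia libraries of miR-101-x lay above control 1 and control 3 but below control 2. Relative to the median of all tested entries, -0.22, the differences were 0.22 for miR-101-y, 0.33 for miR-101-z and 0.69 for miR-101-x. Scalings that bring this median near 0 moved miR-101-x to between 0.71 and 0.87, with limma adjusted p between 0.0541 and 0.119, still short of the threshold. The unadjusted limma p of miR-101-x was 0.0103 to 0.0396 under these scalings, where 166 to 175 of all tested entries were under 0.05. That no miR-101 entry had an unadjusted p under 0.05 thus does not hold under these scalings.

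Under acute hypoxia each miR-101 entry had a higher mean than in control, and none passed. The test called 0 of 481 entries (0%) here, with 47 (9.77%) at an unadjusted p under 0.05, and also 0 by voom on recovered reads. In 11.2% of entries the groups did not overlap, and miR-101 was not among them. For miR-101-y the means were 18629 ± 7021 and 13324 ± 5402 TPM (SD, n = 3 each), a log2 value of 0.51 (95% interval -0.25 to 1.27, limma adjusted p = 0.645). Acute hypoxia libraries 2 and 3 lay above every control, and library 1 lay below controls 1 and 2.

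The log2 value of miR-101-z was 0.67 (95% interval -0.079 to 1.41, limma adjusted p = 0.557), from 613 ± 195 to 1004 ± 447 TPM (SD, n = 3 each), and that of miR-101-x 0.50 (95% interval -0.11 to 1.11, limma adjusted p = 0.579), from 515 ± 187 to 717 ± 199 TPM (SD, n = 3 each). A rise of the size of the upper bounds, 2.41-fold for miR-101-y, 2.66-fold for miR-101-z and 2.16-fold for miR-101-x, lies at the edge of these intervals. The spread behind these bounds is shared with the tighter moderate hypoxia group. Fitted on these 2 groups alone, the SE was 0.383 for miR-101-y, 0.359 for miR-101-z and 0.317 for miR-101-x. With all 9 libraries it was 0.344, 0.338 and 0.277. Without acute hypoxia 2 the values of miR-101-y, miR-101-z and miR-101-x were 0.24, 0.34 and 0.29, and without control 3 they were 0.12, 0.39 and 0.42. Without acute hypoxia 1 they were 0.80, 0.99 and 0.69 (limma adjusted p = 0.266, 0.174 and 0.263, unadjusted p = 0.0465, 0.0121 and 0.0414), and without control 1 miR-101-y was 0.76 and miR-101-x 0.30. Without control 2 miR-101-x was 0.78 (limma adjusted p = 0.249, unadjusted p = 0.0124). The median change of all tested entries was 0.084.

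The hypoxia groups were then compared with each other. Again 0 of 3 miR-101 entries passed, where 30.6% of all tested entries did (22.9% higher and 7.69% lower). An unadjusted p under 0.05 was reached by 44.5% of entries and groups without overlap by 52.8%, against 0 of 3 miR-101 entries. The log2 values were 0.51 for miR-101-y (95% interval -0.25 to 1.27, limma adjusted p = 0.265), 0.56 for miR-101-z (95% interval -0.19 to 1.31, limma adjusted p = 0.216) and 0.030 for miR-101-x (95% interval -0.58 to 0.64, limma adjusted p = 0.941). The median of all tested entries stood at 0.32, so relative to it miR-101-y was at 0.19, miR-101-z at 0.24 and miR-101-x at -0.29. The direction of miR-101-x therefore depends on the scaling, and it read -0.53 to -0.19 under the 4 other scalings. Under these miR-101-y read 0.055 to 0.29 and miR-101-z 0.15 to 0.34. Leaving out acute hypoxia 2 gave 0.24 for miR-101-y and 0.23 for miR-101-z. Leaving out acute hypoxia 1 gave 0.80 and 0.89 (limma adjusted p = 0.108 and 0.0657, unadjusted p = 0.0466 and 0.0209). Fitted on the 2 hypoxia groups alone, the SE was 0.254 for miR-101-y, 0.307 for miR-101-z and 0.210 for miR-101-x. The limma adjusted p of that fit was 0.141, 0.171 and 0.917 in this order. With all 9 libraries the SE was 0.344, 0.338 and 0.277. The 3 comparisons share libraries, and each is given here for its own values.

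The authors' deposited table lists none of the 3 entries under a false discovery rate of 0.05 in any comparison. Of all its entries, the authors' deposited table lists 151 of 1413 (10.7%) under moderate hypoxia against control, 0 of 1139 (0%) under acute hypoxia against control and 165 of 1413 (11.7%) for acute against moderate hypoxia. Among the 3 miR-101 entries, the smallest p-value in the authors' deposited table is that of miR-101-x under moderate hypoxia, p = 0.0288, with a false discovery rate of 0.158 and a log2 fold change of 0.41. The authors' deposited table gives miR-101-y log2 fold changes of -0.096, 0.48 and 0.58 in the order of the comparisons above.

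**Figure D2:**
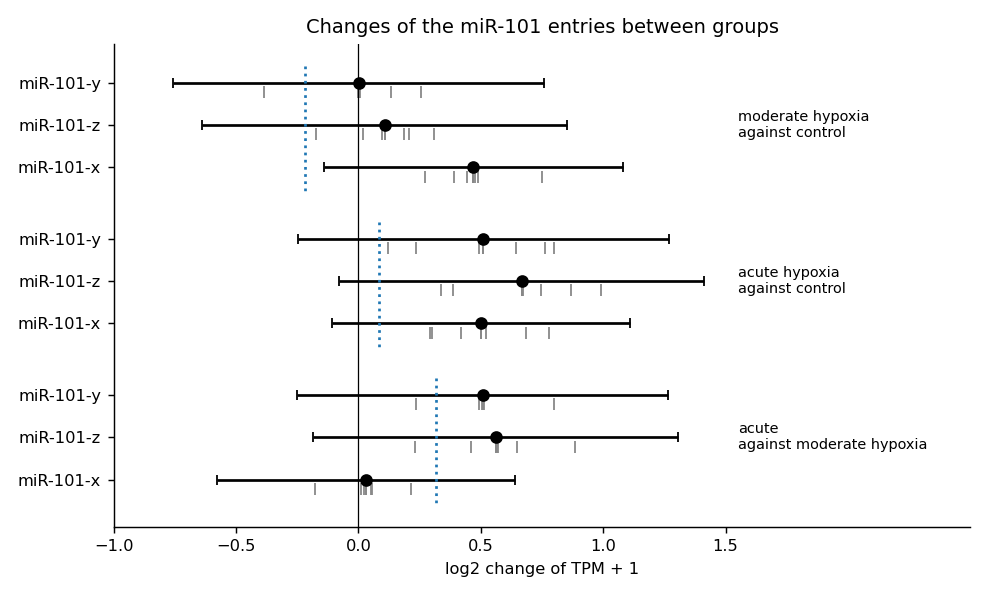
Log2 change of TPM + 1 for each miR-101 entry in the 3 comparisons, as points with 95% limma intervals, grey ticks for the fits that leave out 1 library each and a dotted blue line at the median of all 481 tested entries. All 9 intervals include 0, and the acute hypoxia values of miR-101-y and miR-101-z lie between 0.51 and 0.67.

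The spread between libraries differed between the groups. Under moderate hypoxia the coefficient of variation (CV, SD over mean) of miR-101-y was 0.571%, and 1 of the 98 entries of at least 100 TPM had a lower one there. The median of these entries was 8.02%. In control and acute hypoxia the CV of miR-101-y was 40.5% and 37.7%, above the medians of 25.1% and 18.3%, with 75 and 85 of the 98 entries below it. Counting error alone gives a CV of 0.269% for the shallowest moderate hypoxia library of miR-101-y and 0.389% for the shallowest control library.

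For miR-101-x the CV was 36.4% in control, 3.42% under moderate hypoxia and 27.7% under acute hypoxia. For miR-101-z it was 31.8%, 12.9% and 44.6%. All 3 entries were thus tighter under moderate hypoxia than in either other group, as was the median entry. No test of the spread was made. In all 3 entries moderate hypoxia 3 lay between libraries 1 and 2 of its group, and its part in these CVs was not tested.

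**Figure D3:**
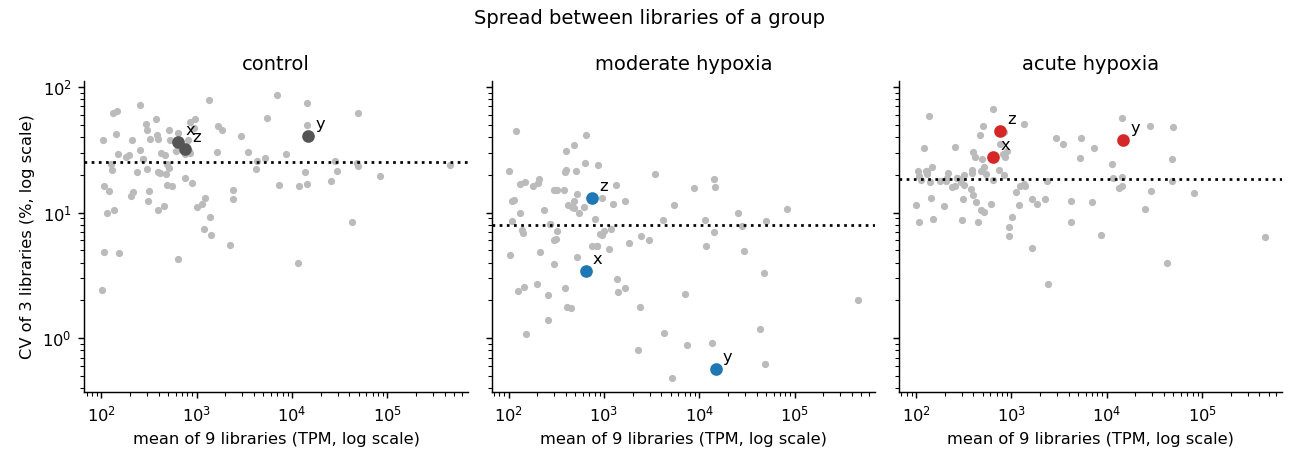
CV of the 3 libraries of a group (%, log axis) against the mean of the 9 libraries (TPM, log axis) for the 98 entries of at least 100 TPM in grey, with miR-101-x, miR-101-y and miR-101-z in colour and the median as a dotted line. In moderate hypoxia miR-101-y lies at 0.571%, near the bottom, and in the other groups it lies above the median.

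Ratios between the entries within a library are not moved by a scaling that multiplies all values of a library by 1 factor, unlike quantile normalization. Over the mean levels miR-101-y was 23.2 times as abundant as miR-101-x. Among 67 miRNAs with both an x and a y entry tested, y exceeded x in 28, and 12 of the 67 had a higher ratio of y to x than miR-101. The ratio of miR-101-y to miR-101-x was 47.2, 20.6 and 16.5 in the controls. It was 17.4, 18.8 and 18.4 in the moderate hypoxia libraries and 21.97, 27.8 and 26.7 in the acute hypoxia libraries.

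Every acute hypoxia library had a higher ratio of miR-101-y to miR-101-x than every moderate hypoxia library. Such a separation was common, as the groups did not overlap in 33 of 64 miRNAs (51.6%) whose x and y entries both had at least 3 reads in each of these libraries. The log2 ratio was higher by 0.48 (4.66 ± 0.18 against 4.19 ± 0.057, SD, n = 3 each), with an exact two-sided permutation p = 0.1, the smallest that 3 against 3 libraries can give. With 1 library left out this difference stayed between 0.41 and 0.58. The controls spanned both hypoxia groups, since control 1 lay above and control 3 below all of their libraries. Against control the log2 difference was -0.47 for moderate hypoxia (exact permutation p = 0.5, n = 3 each) and 0.0089 for acute hypoxia (exact permutation p = 1, n = 3 each). Without control 1 the first of these was -0.016 and the second 0.46.

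Between the 2 carriers of the ACAGTAC seed the ratio was also counted. There were 26.9, 19.2 and 18.2 reads of miR-101-y to each of miR-101-z in the controls, 22.4, 17.4 and 19.3 in the moderate hypoxia libraries and 19.9, 17.5 and 19.5 in the acute hypoxia libraries. Thus miR-101-z made up 3.59 to 5.42% of their sum in every library. The groups overlapped, and the exact permutation p-values of the 3 differences were 0.7, 0.6 and 0.9 (n = 3 each). An entry ending in z with the seed of the y entry is common in the file, since 24 of 56 miRNAs with x, y and z entries have one, while in 20 the z entry has the seed of x and in 12 of neither.

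**Figure D4:**
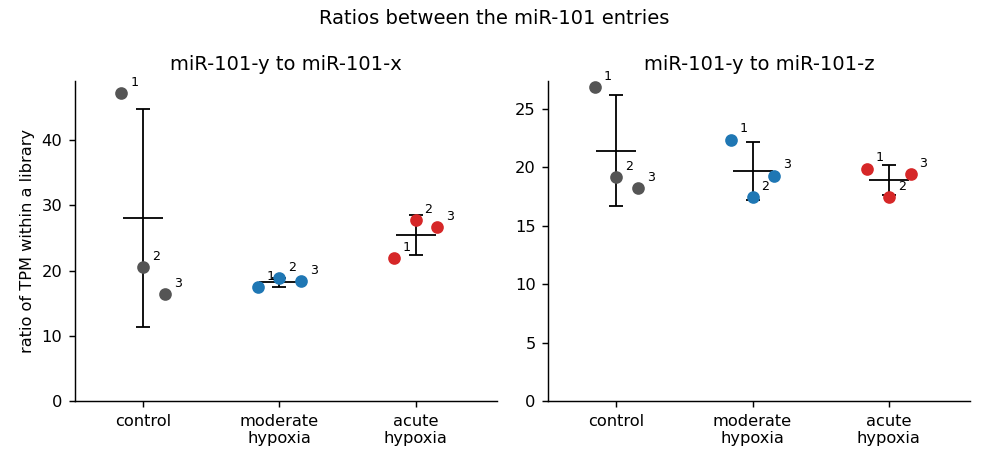
Ratio of TPM within each library (linear axis from 0) for miR-101-y to miR-101-x and for miR-101-y to miR-101-z, with points numbered by replicate and black lines for the mean and SD of 3 libraries. The ratio to miR-101-x is 17.4 to 18.8 under moderate and 21.97 to 27.8 under acute hypoxia, with control 1 at 47.2, and the ratio to miR-101-z stays between 17.4 and 26.9.

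Together the 3 entries made up 1.44 ± 0.556% of the summed abundance of all entries in control, 1.37 ± 0.0135% under moderate hypoxia and 2.03 ± 0.763% under acute hypoxia (SD, n = 3 each). The 3 differences had exact permutation p = 1, 0.4 and 0.4 (n = 3 each). The smallest p that 3 against 3 libraries allow is 0.1, so this test could not have passed any at 0.05. Much of the pool is miR-122-x, the dominant miRNA of hepatocytes. Without it the share was 2.44 ± 0.735%, 2.82 ± 0.0317% and 3.55 ± 1.22% (SD, n = 3 each), so the moderate hypoxia mean lay below the control mean with miR-122-x counted and above it without. In whole liver a miRNA that is scarcer per cell cannot be told apart from fewer cells that hold it.

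Across the 9 libraries miR-101-y and miR-101-z varied together, with Pearson r = 0.928 and Spearman rho = 0.933 on log2(TPM + 1) (exact permutation p = 0.00144 and 0.00075, adjusted over 3 pairs 0.00432 and 0.00225, n = 9). Without control 3 and acute hypoxia 2, the libraries farthest from the median, r was 0.686. The permutations, here and for the other pairs, treated the 9 libraries as exchangeable and ignored their groups. As deviations from the group means r was 0.910, for which no p was taken. These entries share 21 bases, the libraries and the scaling, and how reads were split between them is unknown.

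The strands miR-101-y and miR-101-x did not pass (r = 0.477, exact permutation p = 0.192, adjusted 0.192, rho = 0.467, exact permutation p = 0.213, adjusted 0.213, n = 9), and r was -0.373 without the same libraries. For miR-101-z with miR-101-x r was 0.684 (exact permutation p = 0.043, adjusted 0.0645, n = 9) and rho 0.567 (exact permutation p = 0.121, adjusted 0.181, n = 9), and r was 0.230 without them.

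Beyond its own z entry, the entries whose pattern over the 9 libraries was most like that of miR-101-y were, among 176 other distinct sequences of at least 10 TPM, a predicted miRNA (r = 0.933), miR-148-x (r = 0.879), miR-200-y (r = 0.866) and miR-142-x (r = 0.855). The predicted miRNA is shown by its sequence, since predicted names differ between the deposited tables.
predicted entry: tagaatactgtagtatgtact
It read 70.8, 78.8 and 41.1 TPM in control, 58.5, 56.9 and 56.9 TPM under moderate hypoxia and 68.6, 100.2 and 90.4 TPM under acute hypoxia, lowest in control 3 and highest in acute hypoxia 2 like miR-101-y. In mammals miR-148 is abundant in hepatocytes, miR-200 in epithelia and miR-142 in blood cells. These r values were used to choose the entries, the points share library and scaling, and no p is given.

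**Figure D5:**
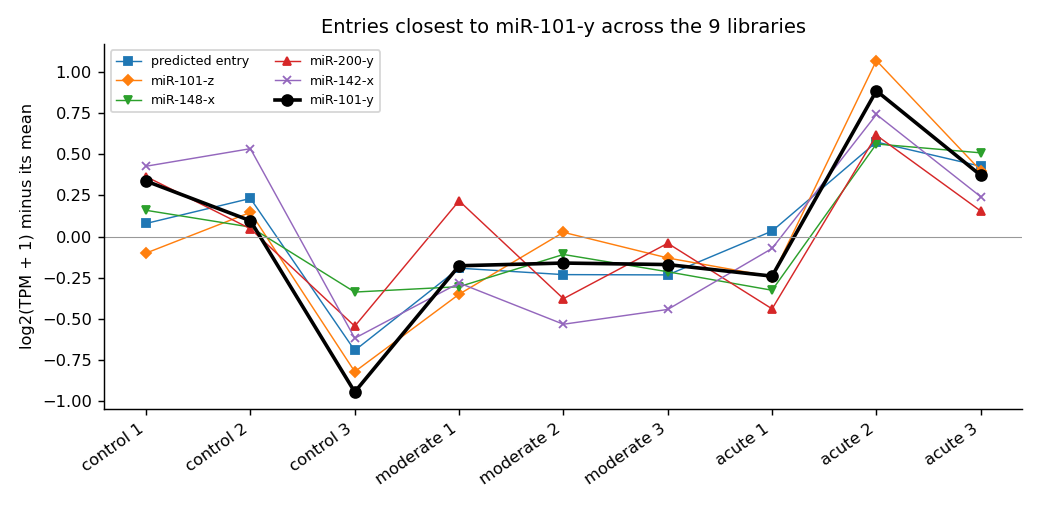
Log2(TPM + 1) minus its mean over the 9 libraries for miR-101-y in black and the 5 entries of highest Pearson r in colour, with lines between libraries only to guide the eye. All 6 are low in control 3 and high in acute hypoxia 2, and miR-101-y is flat over the 3 moderate hypoxia libraries.

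The entries most like miR-101-x were others, miR-122-y (r = 0.915), miR-143-x (r = 0.891) and miR-199-z (r = 0.864). Like miR-101-x, miR-122-y was lowest in control 1 with 175 TPM, against 1357 and 737 TPM in the other controls, and highest in acute hypoxia 2 with 2422 TPM.

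Marker sums of other cell types moved with miR-101-y to different degrees. The leukocyte markers miR-142, miR-150, miR-155 and miR-223, with 9 entries and 5 tested, summed to 719 to 1345 TPM in control, 787 to 870 TPM under moderate hypoxia and 954 to 1523 TPM under acute hypoxia, with r = 0.864 to miR-101-y over the 9 libraries. The stromal markers miR-143, miR-145, miR-199 and miR-214, with 11 entries, summed to 86027 to 122272 TPM, 84960 to 93953 TPM and 110191 to 143891 TPM in the same order (r = 0.826). The leukocyte sum is mostly miR-142-x, with 1033 of 1130 TPM in control 1 and 500 of 719 TPM in control 3. That entry was chosen above by its r with miR-101-y, so the r of the sum restates this choice. What the other leukocyte entries add was smaller in control 1 than in control 3, while miR-101-y was higher in control 1. No r was taken for the sum without miR-142-x, so the r of 0.864 does not cover the other leukocyte markers. Most of the stromal sum is miR-199-x, with a mean of 82741 TPM. For endothelium, miR-126 in 2 entries, the ranges were 11982 to 16161 TPM, 6719 to 7379 TPM and 13401 to 19700 TPM (r = 0.555), and for red blood cells r was 0.389. Pancreas, striated muscle and nervous tissue gave r of -0.072, -0.099 and -0.14, with the nervous tissue sum at 128 and 130 TPM in moderate hypoxia 1 and 2 and between 8.30 and 18.9 TPM in the other libraries. The liver sum gave r = -0.557, but miR-122-x makes up 91.7% of it. Without miR-122-x r was 0.072, and 8 of the 10 liver entries, miR-148-x among them, had an r above 0. No marker entry was at 0 in every library, the points share library and scaling, and the part of these cells in the miR-101 values was not tested.

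Near relatives of the seed were few. Apart from miR-101, miR-2184-x was the only known entry with the letters ACAGTA at bases 2 to 7, and its highest value was 0.829 TPM. In miR-144-y, an erythroid miRNA, these letters begin 1 base later, and in miR-199-y 1 base earlier. They are capitalised here to show the shift against miR-101-y.
miR-144-y: ctACAGTAtagatgatgtact
miR-199-y: ACAGTAgtctgcacattggtt
While miR-101-y did not pass, miR-144-y fell under moderate hypoxia, from 1107 ± 585 to 212 ± 50.7 TPM (SD, n = 3 each; log2 -2.25, SE 0.387, limma adjusted p = 0.00352), and passed under each of the 4 other scalings. It did not pass under acute hypoxia against control (log2 0.29, limma adjusted p = 0.875). Against moderate hypoxia it was higher under acute hypoxia (log2 2.55, limma adjusted p = 0.00113) and passed under each of the 4 other scalings. The red blood cell markers miR-144, miR-451 and miR-486 summed to 2017 to 3512 TPM in the controls, 679 to 872 TPM in the moderate and 2156 to 3122 TPM in the acute hypoxia libraries. This sum includes miR-144-y itself, so part of its drop is that of miR-144-y. It was not taken without miR-144-y, and the part of red blood cells in the fall of miR-144-y was not tested. Whether miR-144-y and miR-101-y differ in response was not tested either. For miR-199-y the log2 values against control were 0.48 under moderate and -0.091 under acute hypoxia (limma adjusted p = 0.128 and 0.927). For acute against moderate hypoxia the value was -0.57 (limma adjusted p = 0.0709).

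In mammals other miRNAs also repress EZH2, among them let-7, miR-26, miR-98, miR-124, miR-137, miR-138, miR-214 and miR-217, which had 13 tested entries here. Under moderate hypoxia let-7-y rose (log2 0.83, limma adjusted p = 0.0271) and miR-26-x, miR-214-x and miR-214-y fell (log2 -1.14, -0.74 and -0.80, limma adjusted p = 0.0236, 0.0436 and 0.0145), while 9 did not pass. These 4 of 13 (30.8%) stand beside 25.6% of all tested entries, so the share is near the background. The list's median was 0.085 against -0.22 for all tested entries. Of these 4 calls only let-7-y passed under each of 4 other scalings, and none changed sign. The list counts every arm, and let-7-y (mean 613 TPM) has another seed than let-7-x (mean 42731 TPM). The more abundant let-7-x did not pass under moderate hypoxia (log2 0.085, limma adjusted p = 0.754). Whether let-7-y, miR-214-x or miR-214-y represses EZH2 was not tested. Against control 0 of 13 passed under acute hypoxia, beside 0 of all 481 tested entries. Against moderate hypoxia 2 were higher, miR-214-x and miR-214-y (log2 1.02 and 0.83), of which neither passed under all 4 scalings. That is 15.4% of the list, below the 30.6% of all tested entries.

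Of 25 tested entries of miRNAs that, like miR-101, are reduced in mammalian liver cancer, let-7, miR-22, miR-26, miR-29, miR-122, miR-125, miR-139, miR-145, miR-195, miR-199 and miR-223, 2 rose and 4 fell under moderate hypoxia against control. These 24% are close to the 25.6% of all tested entries. Their median was -0.17 beside -0.22 for all tested entries. The rises of let-7-y and miR-22-y (log2 0.83 and 0.88) passed under each of the 4 scalings, and the falls of miR-26-x, miR-29-x, miR-125-x and miR-223-y did not. Under acute hypoxia 0 of 25 passed against control, beside 0 of all 481 tested entries. Against moderate hypoxia 5 were higher and 1 lower, of which only the fall of miR-125-y (log2 -0.59) passed under all 4 scalings. Again 24% were called, beside 30.6% of all tested entries. The list counts every arm, and let-7-y and miR-125-y have another seed than the x entries of their miRNAs. Under moderate hypoxia against control miR-29-x was called and miR-29-y was not (log2 -0.76, limma adjusted p = 0.0556). Of the 4 most abundant entries, miR-22-y alone passed under moderate hypoxia against control. There miR-122-x, miR-199-x and let-7-x did not pass (log2 0.32, -0.30 and 0.085, limma adjusted p = 0.254, 0.296 and 0.754).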

How the data were processed

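Small RNA of trout liver was sequenced from 9 libraries, per the labels. No source used here names the aligner, build, counting or prediction step. The deposited file stacks 3 tables, each covering a pair of groups. Abundance, a signal scaled to the library, is headed TPM per the file headers, and 0.01 stands for 0 reads. The deposited log2 fold changes and p-values are the authors' own, by an unnamed test. Both tables that include moderate hypoxia list the same 1413 entries and were joined.

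Small TPM values in a library are multiples of what 1 read is worth, so reads could be recovered (100% of the values checked lay within 0.05 of a whole number). A floor of 3 reads corresponds to 0.182 to 0.355 TPM. Log2(TPM + 1) was fitted with limma-trend (limma 3.58.1, R 4.3.3) over 9 libraries and 3 group means, for the 481 entries whose mean reached 1 TPM, with Benjamini-Hochberg adjustment at 0.05. Fold changes on this scale understate those of low entries. The fit was tested on simulated data with independent libraries and the same setting for spread in every group. Unequal spread between groups, as seen here, was not simulated. Ratios and shares were compared by exact permutation tests (scipy 1.17.1, Python 3.11.15), whose smallest two-sided p is 0.1. Duplexes were predicted with RNAduplex (ViennaRNA 2.7.2). Entries of like pattern had the highest Pearson r with a member among those averaging 10 TPM or more, 5 for miR-101-y and 3 for the others, each sequence once. List members that passed are named after their values were seen. The members, lists and tests were chosen with earlier results of these data known.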

Additional observations from a re-analysis of the deposited data

How the results depend on the processing

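No miR-101 entry passed in any of 198 combinations of the 9 member results with a refit. The refits changed the pseudocount (0.1 or 5), the filter (none, or 10 TPM), the scaling (trimmed means, median of ratios, quantiles, or leaving out miR-122-x), and used only the 2 groups, distinct sequences, the other deposited table, voom on recovered reads (added after the values were seen; edgeR was not run), a replicate block, and libraries left out. Direction changed in 9 of the combinations. Some of them, such as leaving out a library of the third group, move only the spread and not the log2 value. Under moderate hypoxia miR-101-y read -0.39 without control 3, -0.0034 without moderate hypoxia 2 and -0.0012 with voom, and with 1 library left out ranged from -0.39 to 0.25. For miR-101-z this range was -0.17 to 0.31. Acute against moderate hypoxia, miR-101-x read -0.37 with trimmed means, -0.38 with median of ratios, -0.53 with quantiles, -0.19 without miR-122-x, and -0.18 to 0.22 with 1 library left out.

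Entries called, main 123 under moderate hypoxia, were 75 at 10 TPM, 80 with quantiles, 10 without moderate hypoxia libraries 1 and 2 together (1 library left, whose spread is taken from the other groups), and 61 to 129 with 1 library left out. Acute against moderate hypoxia, main 147, they were 83, 112, 28 and 73 to 186, lowest without moderate hypoxia 2. Calls split 53 higher to 49 lower and 58 to 70 with trimmed means.

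The log2 ratio of miR-101-y to miR-101-z ranged with 1 library left out from -0.21 to 0.069 (moderate hypoxia against control), -0.26 to 0.016 (acute hypoxia against control) and -0.14 to 0.043 (acute against moderate hypoxia). That of miR-101-y to miR-101-x ranged from -0.30 to 0.46 for acute hypoxia against control. The difference in share ranged from -0.38 to 0.15 percentage points for moderate hypoxia against control and was 0.38 without miR-122-x. It ranged from 0.19 to 0.95 for acute hypoxia against control and from 0.26 to 1.02 for acute against moderate hypoxia.

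Same-numbered libraries had correlations of -0.206 to 0.264 in their deviations, over 0.1 in 1 of 9 pairs, so no pairing by number was detected. Deviations from the means of 3 libraries cannot exclude one. With the replicate block 117, 0 and 140 entries were called, and the log2 value of miR-101-x under moderate hypoxia stayed 0.47 (limma adjusted p = 0.173). Paired ratios and shares kept their values, and 3 pairs allow no p under 0.25. With 3 libraries a group, the intervals of miR-101 span over 2-fold, and the spread between libraries, not read depth, limits them.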
